A study of Capra hircus with 4 samples.

Results

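ALB, AFP and TTR encode secreted proteins that adult mammals are known to make mainly in the liver, and their transcripts were followed here through the cells of the goat pancreas. They were taken by gene symbol from a set of 4 named genes that also held CLU, and that set had been chosen by levels already measured in these cells. The 3 genes analysed stand among 27137 in the deposited feature list (gene IDs 100860821 for ALB, 102177320 for AFP and 102182555 for TTR). CLU was not analysed here. Because measured levels chose the genes, their levels across cell classes are a description and carry no test.

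Albumin, from ALB, is the main protein of blood plasma and carries fatty acids and other small molecules. Alpha-fetoprotein, from AFP, is its fetal counterpart, made by yolk sac and fetal liver and largely shut off after birth. Transthyretin, from TTR, carries thyroid hormone and, with the retinol-binding protein RBP4, vitamin A, and besides liver and choroid plexus it is known to be made in pancreatic islets. In RefSeq's gene order for the goat assembly ARS1.2, ALB, AFP and AFM (afamin, also of the albumin family) follow each other directly, whereas TTR lies apart between B4GALT6 and DSG2.

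Pancreas was taken from 4 Liuyang black goats, 2 of them 10 days old, at the non-ruminating stage, and 2 of them 6 months old, ruminating, with no treatment named in the labels. The single-cell libraries were made from twin females. All 4 goats came from commercial farms, and each sample is labelled with the same mixture of cell types (acinar, immune, stellate, beta, ductal, endocrine-like, endothelial and delta). The 4 libraries are told apart by a number on each cell barcode, and nothing in the labels says which animal or age a number stands for, so values are given by library number and the ages were not compared.

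The libraries held 43297855, 82817057, 65937591 and 55223412 UMIs (unique molecular identifiers, each standing for 1 captured RNA molecule) in the order of their numbers, and 13216 cells were called. Acinar-like cells, which make digestive enzymes, numbered 372, 1261, 820 and 70 in libraries 1 to 4. Ductal-like cells numbered 58, 128, 202 and 11, and endocrine-like cells 679, 690, 911 and 664. Class names end in "-like" because they were rebuilt here from marker genes, not taken from the study. Of the called cells, 34 carried a barcode sequence that another library also held. Libraries 1 and 4 stood apart from libraries 2 and 3 among acinar-like cells: all 372 in library 1 and 64 of 70 in library 4 fell in cluster 4, led by LOC102174148, and no cell of libraries 2 and 3 did. Levels are counts per 1000000 UMIs (CPM) of all cells of a class in a library, with the exact 95% Poisson interval in brackets, which covers counting error only.

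ALB was a transcript of acinar-like cells in every library. Its level there was 133 CPM (122 to 144) in library 1, 279 CPM (273 to 285) in library 2, 487 CPM (477 to 497) in library 3 and 193 CPM (168 to 221) in library 4. Endocrine-like cells of the same libraries held 1.27, 6.13, 7.84 and 0.41 CPM, and stellate/fibroblast-like cells 3.37, 5.52, 5.32 and 0.49 CPM. Taken as a whole class, acinar-like cells were thus highest for ALB in all 4 libraries, and 95.5% of the 18655 ALB UMIs in called cells sat in them.

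The level in library 4 rested on few cells. A single acinar-like cell held 130 of the 210 ALB UMIs there, and without that cell the level was 77.4 CPM. The 64 cells of cluster 4 in library 4 stood at 26.0 CPM (16.7 to 38.7), against 1284 CPM (1104 to 1485) in 5 cells of cluster 25. The 11 ductal-like cells of library 4 stood at 34.2 CPM (12.5 to 74.4), from 6 ALB UMIs. In library 4, cluster 4 alone was thus not above the ductal-like class. The order of libraries 2, 3 and 1 did not change when the cell with the most ALB UMIs was left out of each, at 276, 482 and 124 CPM.

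**Figure D1:**
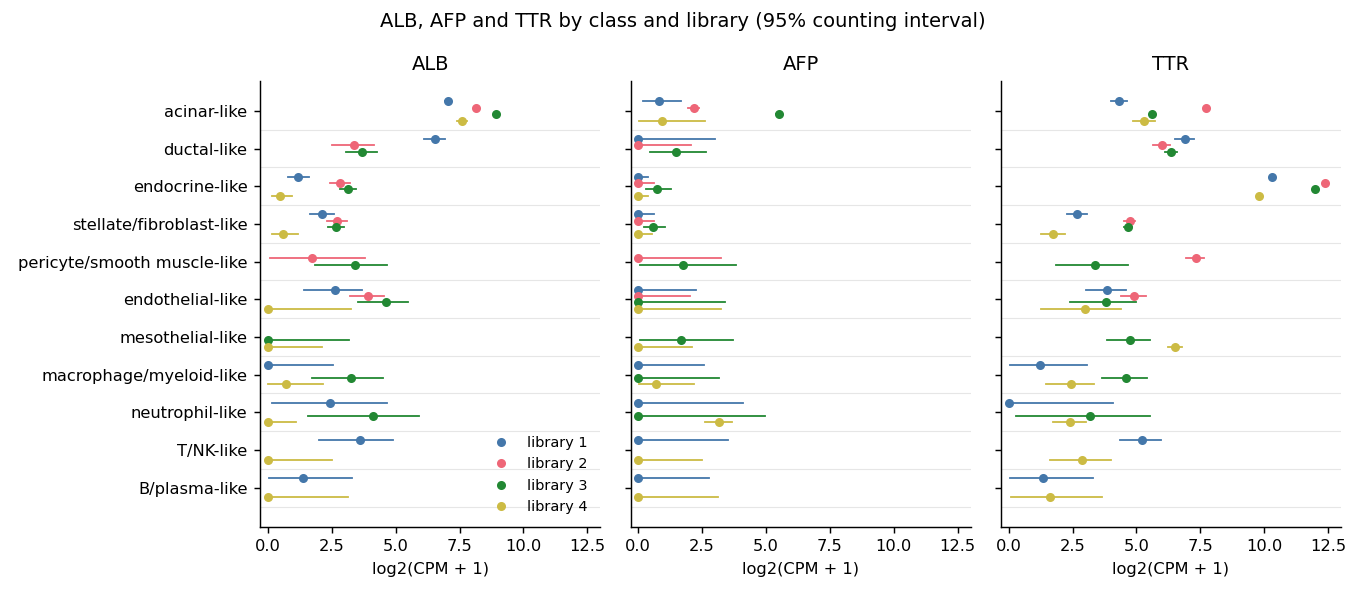
Level of ALB, AFP and TTR as log2(CPM + 1) on the horizontal axis in each cell class, 1 point per library with at least 20 cells of the class, with lines for the 95% counting interval. ALB was highest in acinar-like cells (133 to 487 CPM), AFP was highest in acinar-like cells of library 3 (44.5 CPM), and TTR was highest in endocrine-like cells (881 to 5314 CPM).

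Ductal-like cells, which line the ducts that drain the acini, held less ALB than acinar-like cells in each library that had 20 or more of them. Their ALB level was 91.2 CPM in library 1, 9.45 CPM in library 2 and 11.9 CPM in library 3. In library 1, 1 ductal-like cell held 32 of the 48 ALB UMIs, and the level without it was 30.7 CPM. Of the ductal-like cells, 1 in each of libraries 1, 2 and 3 had at least 5% of its UMIs in acinar enzyme genes, and the part of such cells in the ductal level was not tested.

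The log2 ratio of (CPM + 1) between acinar-like and ductal-like cells was 0.54, 4.74 and 5.24 for ALB in libraries 1, 2 and 3. A gene was called different only when this ratio reached 1 or -1 in every library with 20 cells or more of both classes and with 20 UMIs or more in the higher class. ALB was therefore not called, since library 1 fell short. It was called higher without library 1 (median 4.99) and without the cell with the most ALB UMIs in each class and library (median 4.98). Over all 4223 genes measured in this comparison the call rule named 2.11% higher and 70.9% lower and the median ratio was -1.91. Once each library was centred on its gene median, the median ratio of ALB was 6.59 and it was called higher, as were 10.8% of the genes measured, with 9.57% called lower.

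Against acinar-like cells, endocrine-like cells had a log2 ratio for ALB of -5.88, -5.29, -5.79 and -7.11 in libraries 1 to 4, called lower. The background of this comparison was 1.03% of 10316 genes called lower and 44.6% called higher, with a median ratio of 1.54. Relative to that median, 5.75% were lower, ALB among them, and 8.32% higher. Since ALB was chosen by such levels, nothing is read from its place in that background.

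RNA released from broken cells gives UMIs in droplets of every kind, so each share of cells with a UMI was set beside that background. ALB stood at 74.3, 188, 167 and 3.44 CPM in barcodes with 10 to 100 UMIs, which hold free RNA, the last from only 3 UMIs. At least 1 ALB UMI was found in 48.4%, 76.1%, 84.0% and 27.1% of acinar-like cells of libraries 1 to 4. Among stellate/fibroblast-like cells, where ALB is not known to be made, the shares were 1.41%, 3.71%, 3.69% and 0.41%. Median depths were 7631.5, 19284, 17627.5 and 11370 UMIs in the acinar-like cells and 4884, 6796, 6706 and 8055 in the stellate/fibroblast-like cells. With every cell thinned to 3000 UMIs, the acinar-like shares were 30.1%, 41.7%, 56.8% and 15.7% and the stellate/fibroblast-like shares 0.63%, 1.44%, 1.87% and 0.10%. The gap between the classes was thus present at equal depth in all 4 libraries.

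ALB was spread unevenly over acinar-like cells. The 10% of cells with the most ALB UMIs held 53.6%, 46.4%, 44.1% and 93.8% of them in libraries 1 to 4. SERPINI2, a serine protease inhibitor gene of acinar cells, had 27.6%, 28.0%, 26.1% and 28.7% of its UMIs in its own top 10% of cells. DMGDH (dimethylglycine dehydrogenase), with fewer UMIs than ALB in each library (363, 3437, 5451 and 126), had 39.7%, 31.4%, 27.7% and 38.9%. The part of sampling in these shares was not tested. The median acinar-like cell had 0 CPM of ALB in libraries 1 and 4, 151 CPM in library 2 and 296 CPM in library 3. The cell at the 90th percentile stood at 537, 689, 1168 and 219 CPM.

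AFP was found in acinar-like cells mainly in library 3. Its level there was 44.5 CPM (41.4 to 47.7), from 782 UMIs in 299 of 820 cells. In library 2 it was 3.50 CPM (2.87 to 4.23), from 107 UMIs in 79 of 1261 cells. Libraries 1 and 4 gave 3 UMIs and 1 UMI, or 0.74 CPM (0.15 to 2.17) and 0.92 CPM (0.02 to 5.13). AFP in free RNA stood at 0, 2.84, 11.7 and 0 CPM in libraries 1 to 4, from only 0, 5, 4 and 0 UMIs. In barcodes with 5 to 50 UMIs it was 0 CPM in all 4 libraries.

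The share of acinar-like cells with an AFP UMI was 0.81%, 6.26%, 36.5% and 1.43%, and at a depth of 3000 UMIs 0%, 0.87%, 9.63% and 0%. In stellate/fibroblast-like cells the unthinned share was 0.30% in library 3 (exact binomial interval 0.10% to 0.70%) and 0% in the other libraries, which for library 2 allows up to 0.38%. Endocrine-like cells held 6 AFP UMIs in library 3 and none in the other libraries, and ductal-like cells held 3 in library 3. AFP missed the count minimum of 20 UMIs in at least 1 library and so was not called in any comparison. Its log2 ratio of acinar-like over ductal-like cells was 0.80, 2.17 and 4.03 in libraries 1 to 3.

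AFP stayed far below ALB in acinar-like cells of every library. Of the summed AFP and ALB UMIs, AFP made up 0.56% (exact binomial interval 0.11% to 1.61%) in library 1 and 1.24% (1.02% to 1.50%) in library 2. It made up 8.38% (7.82% to 8.96%) in library 3 and 0.47% (0.01% to 2.61%) in library 4. These shares count 3' ends captured and are not corrected for how well each transcript is captured. The interval of library 3 lay above those of the other libraries, whose intervals overlap.

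**Figure D2:**
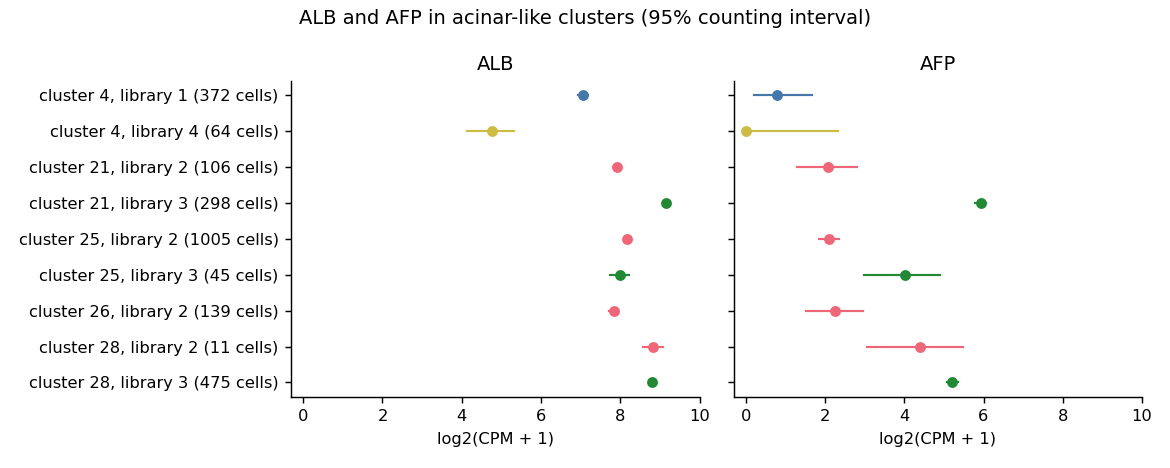
ALB (left) and AFP (right) as log2(CPM + 1) in acinar-like clusters by library, with the 95% counting interval and the number of cells on the vertical axis. ALB in cluster 25 was 287 CPM in library 2 and 252 CPM in library 3, while AFP in the same cluster was 3.30 and 15.1 CPM.

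AFP differed between libraries 2 and 3 also inside clusters that both held. In cluster 25 it was 3.30 CPM (2.62 to 4.10) in 1005 cells of library 2 and 15.1 CPM (6.91 to 28.7) in 45 cells of library 3. In cluster 21 it was 3.19 CPM (1.46 to 6.05) in 106 cells of library 2 and 60.1 CPM (54.4 to 66.3) in 298 cells of library 3. In cluster 28 it was 19.9 CPM (7.31 to 43.4) in 11 cells of library 2 and 36.1 CPM (32.5 to 40.0) in 475 cells of library 3, where the intervals overlap.

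ALB did not follow the same order in each of these clusters. It was 287 CPM (280 to 294) and 252 CPM (213 to 295) in cluster 25, and 455 CPM (382 to 538) and 446 CPM (433 to 459) in cluster 28, for libraries 2 and 3, with overlapping intervals. In cluster 21 it was 241 CPM (223 to 260) in library 2 and 568 CPM (550 to 587) in library 3. ALB was among the 10 leading genes of clusters 21 and 28 although ALB, AFP, TTR and every list gene had been left out of the clustering.

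Within libraries 2 and 3, AFP was higher where ALB was higher. Libraries 1 and 4 held only 3 AFP UMIs and 1 AFP UMI in acinar-like cells, so no such order was read there. Acinar-like cells of libraries 2 and 3 were ordered by their ALB level and cut into 3 groups of equal size. In library 3 the groups held 56.9, 309 and 1036 CPM of ALB and 15.6 (12.3 to 19.4), 34.7 (30.3 to 39.6) and 79.2 (72.2 to 86.6) CPM of AFP. Of its 299 cells with AFP, 284 also held ALB. In library 2 the groups held 22.4, 162 and 585 CPM of ALB and 2.18 (1.29 to 3.44), 2.88 (1.97 to 4.07) and 5.10 (3.86 to 6.61) CPM of AFP. In both libraries the AFP interval of the highest ALB group lay above that of the lowest. Median depth in the lowest and the highest group was 15700.5 and 18645 UMIs in library 3 and 15170 and 21612.5 UMIs in library 2. The parts of depth and of cluster in this pattern were not tested.

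**Figure D3:**
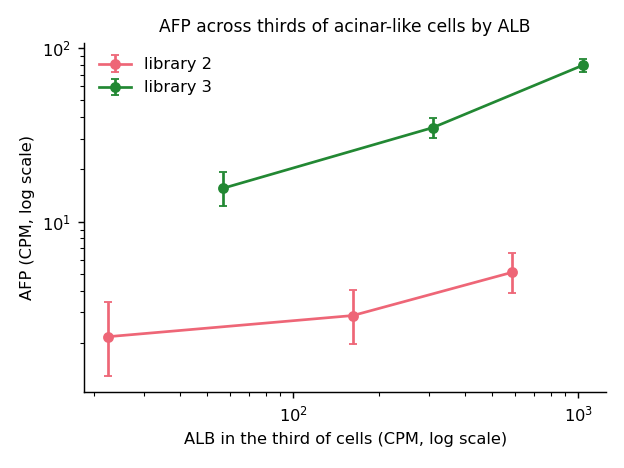
AFP against ALB, both in CPM on log scales, in 3 equal groups of acinar-like cells ordered by ALB, with bars for the 95% counting interval of AFP. AFP rises from 15.6 to 79.2 CPM in library 3 and from 2.18 to 5.10 CPM in library 2.

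The same split was read for all genes with 20 UMIs or more in the lowest or the highest ALB group, 9158 in library 3 and 10197 in library 2. AHSG, which encodes fetuin-A, a plasma glycoprotein abundant in fetal blood of ruminants, had the highest log2 ratio in library 3, at 3.24 (3.15 CPM in the lowest and 38.1 CPM in the highest group). AFP came next at 2.28, against a median of 0.16 over the genes. AHSG was seen in 8 of 274 cells of the lowest group and in 37 of 273 of the highest. Without the cell with the most UMIs of the gene, its ratio was 3.00, and that of AFP 2.22.

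In library 2 AHSG had place 6, with a log2 ratio of 2.17 (19.5 and 90.9 CPM), and AFP place 24, at 0.94, against a median of 0.04. AHSG was seen in 46 of 421 cells of the lowest group and 128 of 420 of the highest, and without its top cell the ratio was 1.98. The 5 genes placed above AHSG each had most of their UMIs in 1 cell, and without that cell their ratios lay between -0.16 and 0.12. AHSG was thus the only one of 60 genes compared in both libraries, most of them list genes, with a ratio above 1 in both after its top cell was left out.

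The other plasma protein genes differed less between these groups or went in different directions. AMBP, the precursor of alpha-1-microglobulin, had a log2 ratio of 0.49 in library 2 and 0.43 in library 3, and the clotting factor F7 had 0.85 and 0.24. APOA1, the main protein of high-density lipoprotein, had a log2 ratio of 2.11 in library 2, or 1.50 without the cell with the most APOA1 UMIs, and -0.73 in library 3. APOE, another lipid carrier, had -0.41 and -1.83. TTR had 0.30 (191 and 236 CPM) and -0.05 (47.3 and 45.5 CPM). Of the acinar genes, SERPINI2 had -0.08 and -0.03, and CEL, the bile salt-activated lipase, 0.14 and 0.16. IGF2, a fetal growth factor gene, had -1.37 in library 2 and 0.95 in library 3, or 0.54 there without its top cell. In library 2, APOA1, APOE and IGF2 stood at 13820, 1969 and 1171 CPM in ductal-like cells, against 20.1, 23.5 and 117 CPM in acinar-like cells. The part of RNA from other classes in their ratios was not tested.

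**Figure D4:**
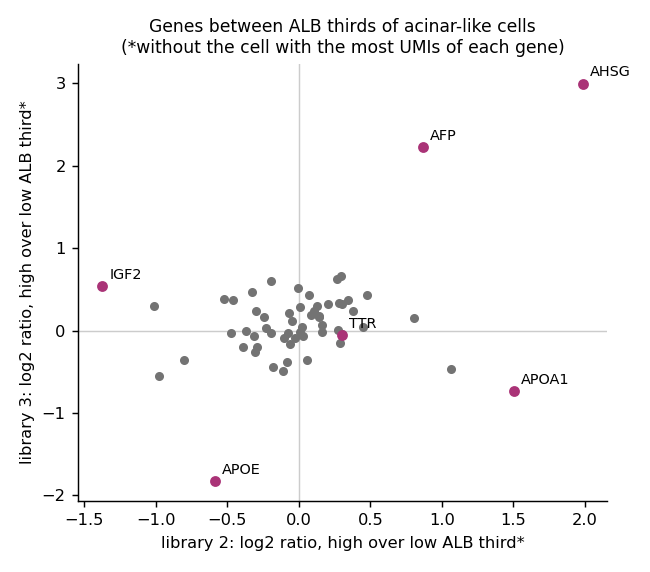
Log2 ratio of (CPM + 1) between the highest and the lowest of 3 equal groups of acinar-like cells ordered by ALB, in library 2 (horizontal) and library 3 (vertical), 1 point for each of 60 genes, without the cell with the most UMIs of that gene. For some genes, such as IGF2 in library 2, that cell lay in neither group and the ratio is unchanged. AHSG (1.98 and 3.00) and AFP (0.87 and 2.22) lie apart from the other genes at the upper right.

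Hepatocyte markers were read beside ALB, since liver cells carry much of it. Of 15 hepatocyte markers named, 11 were matched. ARG1, TAT and HPD, enzymes of urea and tyrosine metabolism, were at 0 UMIs in acinar-like cells of all 4 libraries. Other markers were found there, among them FBP1 with 33, 440, 570 and 11 UMIs and PCK1 with 0, 153, 18 and 1. FBP1 stood at 8.16, 14.4, 32.4 and 10.1 CPM in acinar-like cells and 60.6, 35.9, 47.8 and 39.3 CPM in endocrine-like cells. Of the 11 matched markers, 9, 4, 6 and 8 were at 0 UMIs in acinar-like cells of libraries 1 to 4, and 4, 5, 3 and 3 in endocrine-like cells. The part of liver cells in the ALB level was not tested beyond these counts.

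The other albumin-family genes did not share the level of ALB. AFM had 14 UMIs in all acinar-like cells together, although it follows AFP directly in the genome. GC, the vitamin D-binding protein, stood at 0, 12.4, 1.71 and 6.45 CPM in acinar-like cells and at 83.6, 3.44 and 5.97 CPM in ductal-like cells of libraries 1 to 3. Among other plasma proteins, AHSG stood at 3.46, 49.6, 17.5 and 30.4 CPM in acinar-like cells. AMBP stood at 0.25, 155, 64.7 and 23.0 CPM there. Neither gave the library order of ALB, which was highest in library 3.

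AFP in library 4 lay elsewhere. Of its 30 AFP UMIs in called cells, 26 were in neutrophil-like cells, found in 18 of 407 cells (4.42%, exact binomial interval 2.64% to 6.90%), with at most 8 in 1 cell. These 407 cells held 0 ALB UMIs, and AFP in free RNA of library 4 was 0 CPM. Neutrophil-like cells of libraries 1, 2 and 3, which numbered 34, 3 and 21, held 0 AFP UMIs. With the depth limit lowered to 1000 UMIs, library 4 gave 28 AFP UMIs in 19 of 1600 neutrophil-like cells, or 5.63 CPM (3.74 to 8.14). Library 3 then gave 3 AFP UMIs in 2 of 45 neutrophil-like cells, or 15.3 CPM (3.15 to 44.7). AFP in free RNA of library 3 was 11.7 CPM, within that interval. The part of free RNA in these 3 UMIs was not tested.

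TTR was an endocrine transcript. It stood at 1253 CPM (1233 to 1272), 5314 CPM (5259 to 5369), 4081 CPM (4039 to 4123) and 881 CPM (864 to 897) in endocrine-like cells of libraries 1 to 4. In acinar-like cells it stood at 19.03, 210, 48.4 and 38.7 CPM, and in ductal-like cells of libraries 1 to 3 at 118, 62.7 and 81.1 CPM. Of 116578 TTR UMIs in called cells, 85.3% were in endocrine-like cells, 7.42% in unnamed clusters and 6.32% in acinar-like cells. Endocrine-like cells were far above both other classes in each library.

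The log2 ratio of endocrine-like over acinar-like cells was 5.97, 4.66, 6.37 and 4.47 in libraries 1 to 4, and over ductal-like cells 3.40, 6.38 and 5.64 in libraries 1 to 3. TTR was called higher in both comparisons, with and without centring on the median of all genes. In the comparison with ductal-like cells, 12.4% of 6080 genes were called higher and 16.8% lower. Relative to the median, which was -0.38, 16.0% were higher and 12.4% lower. Between acinar-like and ductal-like cells TTR was not called, at -2.57, 1.72 and -0.73 in libraries 1 to 3.

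At least 1 TTR UMI was found in 97.5%, 99.9%, 99.7% and 95.2% of endocrine-like cells, and at 3000 UMIs in 86.2%, 98.7%, 97.7% and 74.4%. TTR in free RNA stood at 169, 679, 565 and 88.4 CPM. The thinned share in stellate/fibroblast-like cells was 1.33%, 5.66%, 5.80% and 0.92%. Libraries 2 and 3 were higher than libraries 1 and 4 in endocrine-like cells and in free RNA alike.

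Among endocrine-like cells TTR was highest in alpha-like cells, which make glucagon. Its level there was 12879 CPM in library 1 (9 cells), 14326 CPM in library 2 (106 cells), 17252 CPM in library 3 (114 cells) and 6814 CPM in library 4 (15 cells). Beta-like cells, which make insulin, held 1210, 4385, 2986 and 719 CPM. Delta-like cells, which make somatostatin, held 1565, 4135, 2445 and 4881 CPM, the last from 18 cells. Pancreatic polypeptide-like cells held 1084, 2237, 1450 and 640 CPM. Alpha-like cells were the highest subtype in all 4 libraries.

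**Figure D5:**
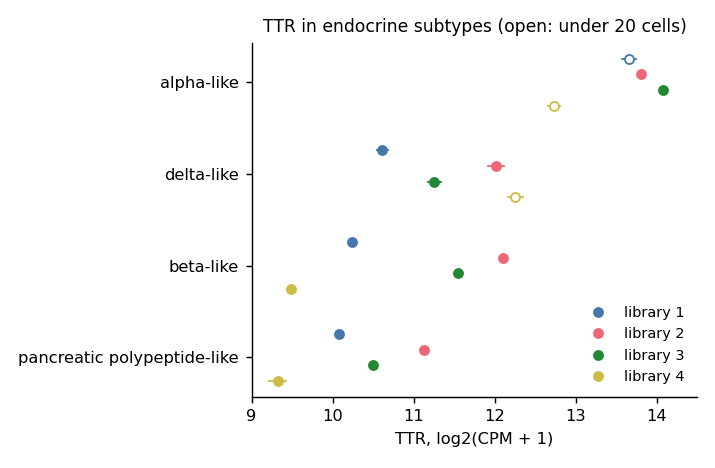
TTR as log2(CPM + 1) in the 4 endocrine subtypes, 1 point per library with the 95% counting interval, with open points where a library had under 20 cells of the subtype. Alpha-like cells lie highest in each library (6814 to 17252 CPM) and pancreatic polypeptide-like cells lowest (640 to 2237 CPM).

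In libraries 2 and 3, which had 20 or more cells of each subtype, the log2 ratio of alpha-like over beta-like cells was 1.71 and 2.53. Over delta-like cells it was 1.79 and 2.82, and over pancreatic polypeptide-like cells 2.68 and 3.57. Beta-like cells lay above pancreatic polypeptide-like cells in 4 of 4 libraries, by a median of 0.57 (0.16 to 1.04), and delta-like cells in 3 of 3, by 0.75 (0.53 to 0.89). The medians over all genes for these pairs were 0.25 and 0.34, so the lowest library value for beta-like over pancreatic polypeptide-like cells lay below the shift of all genes. Delta-like over beta-like cells had -0.08 (-0.29 to 0.37) in libraries 1 to 3, with both signs, while in library 4 the 18 delta-like cells stood at 4881 CPM and the 553 beta-like cells at 719 CPM. Although alpha-like cells made up 106 of 690 endocrine-like cells in library 2, they held 13939 of the 36381 TTR UMIs there.

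RBP4, whose protein travels in blood bound to transthyretin, had another pattern. It was highest in delta-like cells, at 685, 3544 and 2698 CPM in libraries 1 to 3, followed by beta-like cells at 27.8, 1087, 361 and 292 CPM. In alpha-like cells of libraries 2 and 3 it stood at 18.5 and 22.4 CPM. The subtype with the most TTR was thus not the one with the most RBP4. STRA6, the receptor of the RBP4 protein, had 0 UMIs in acinar-like, ductal-like, alpha-like, beta-like, delta-like and pancreatic polypeptide-like cells.

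Acinar-like cells of library 2 held more TTR than those of the other libraries. The level of 210 CPM (204 to 215) came from 6403 UMIs in 82.6% of 1261 cells, and 37.5% held TTR at 3000 UMIs. It was 30.8% of the level in the free RNA of library 2, where stellate/fibroblast-like cells had 3.77% and endothelial-like cells 4.27%. The 15 B/plasma-like cells had 23.9% and those of the pericyte/smooth muscle-like class 23.3%. Of the 22 TTR UMIs in these B/plasma-like cells, 1 cell held 20. Their level was 163 CPM with that cell and 17.3 CPM without it. Acinar-like cells of libraries 1, 3 and 4 stood at 11.3%, 8.58% and 43.8% of the free RNA of their own library. Each acinar-like cluster of library 2 shared in it, from 153 CPM in cluster 21 to 295 CPM in cluster 26, while those of library 3 with 20 cells or more held 43.6 to 55.4 CPM. Outside epithelium, pericyte/smooth muscle-like cells of library 2 held 158 CPM, in 9 of 58 cells, and 60.6 CPM without the cell with the most TTR UMIs, and mesothelial-like cells of library 4 held 91.1 CPM, in 33 of 102 cells.

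Clusters left unnamed held part of the TTR UMIs. Cluster 27, led by cell-cycle genes and carrying endocrine markers, stood at 2411 CPM in library 2 (23 cells) and 3822 CPM in library 3 (123 cells). Cluster 3, with endocrine and neutrophil markers, stood at 387 CPM in 379 cells of library 4. Cluster 20, with acinar and ductal markers, held ALB at 188 CPM in library 2 (52 cells) and 166 CPM in library 3 (46 cells). It held AFP at 0.75 and 22.1 CPM there, so the gap between these libraries was present in it too.

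Likeness to other genes was measured by Pearson correlation of log2(CPM + 1) over 42 units of a subtype in a library, for 13406 genes, as a description, since the units share libraries and free RNA. The genes most like ALB were SERPINI2 (0.90), CEL (0.90) and PRSS2 (0.89), the last encoding a trypsinogen. CEL is also a marker that named the acinar-like class, and ALB was chosen by class levels, so their likeness is no independent result. Those most like AFP were CCKBR, the gastrin and cholecystokinin receptor (0.63), AGER (0.58) and DMGDH (0.58). Those most like TTR were DIRAS3 (0.94), PTPRN2, a protein of secretory granules (0.93), and RESP18 (0.92). ALB and AFP correlated at 0.42, ALB and TTR at 0.16 and AFP and TTR at -0.07. Among the 42 units AFP was highest in acinar-like cells of library 3 (44.5 CPM), then in neutrophil-like cells of library 4 (7.93 CPM). It was low or 0 elsewhere, so the correlations of AFP rest on few units. RESP18, like TTR, was higher in alpha-like than in beta-like, delta-like and pancreatic polypeptide-like cells of libraries 2 and 3, at 2452 and 1886 CPM.

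The other genes of the fixed lists were read against the share of all genes called in the same comparison. Between acinar-like and ductal-like cells, where 70.9% of all genes were called lower and 2.11% higher, 5 of 27 matched plasma carrier genes were measured and 3 were lower, among them APOA1 at 6.18, 20.1 and 46.1 CPM against 16468, 13820 and 13307 CPM in libraries 1 to 3. Relative to the median, with 9.57% of all genes lower and 10.8% higher, 2 of the 5 were lower and none higher. Of 19 liver-enriched transcription factors, 11 were measured and 10 lower, beside that share of 70.9%, with a list median of -2.96 beside -1.91 for all genes. Relative to the median 4 of the 11 were lower, among them ONECUT1 and ONECUT2, and 1 was higher, GATA4 (20.5, 36.0 and 50.1 CPM in acinar-like cells of libraries 1 to 3).

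In endocrine-like against acinar-like cells, 4 of 4 measured clotting genes were higher (F10, FGA, FGG and PROS1), where 44.6% of all genes were higher and 1.03% lower, with a list median of 2.93 beside 1.54 for all genes. Relative to the median, with 8.32% of all genes higher and 5.75% lower, 0 of the 4 were called. Of 7 plasma carrier genes RBP4 and CP, the copper carrier ceruloplasmin, were higher, and relative to the median RBP4 alone. Of 13 liver-enriched transcription factors 5 were higher and GATA4 was lower, and relative to the median GATA4 alone was called, lower. Of 10 receptor and partner genes, LRP8, a receptor of the low-density lipoprotein family, was higher and CRYAB was lower under both settings. HSP90B1 was higher only without centring. FCGRT, the receptor that returns albumin to the blood, was lower only relative to the median, with 43.8, 244, 280 and 75.6 CPM in acinar-like cells.

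Between acinar-like and ductal-like cells 4 of 7 measured fetal and progenitor genes were lower, IGF2, SOX9, NOTCH2 and HES1, where 70.9% of all genes were, and the same 4 were lower relative to the median, where 9.57% of all genes were. All 7 measured injury genes, among them KRT7, KRT19 and TFF3, were lower under both settings, and KRT7 and KRT19 are also markers that named the ductal-like class.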

How the data were processed

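Dissociated goat pancreas was profiled with 10x Genomics 3' version 3 chemistry, per the labels' protocols. The deposited values are raw UMI counts per gene and barcode in 1 unfiltered matrix of 4 libraries. The submitters' processing notes name bcl2fastq 5.01, Cell Ranger 3.1.0 and Seurat 3.1.1, while the header of the matrix, per the file headers, names Cell Ranger 5.0.1. The sources used here do not give the genome build or annotation. Of 27137 gene IDs, 27103 matched the RefSeq gene table of ARS1.2, used for names and gene order.

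A barcode was called a cell above 1/10 of the 99th percentile of the UMIs of the 8000 top barcodes in its library, with at least 500 genes. Scrublet, in Scanpy 1.11.5, removed 194 of 13410 barcodes (77, 2, 111 and 4 in libraries 1 to 4), so that almost none were removed in libraries 2 and 4. Leiden clustering (igraph 0.11.9, resolution 1) used 2000 variable genes, 30 components and 15 neighbours, without ALB, AFP, TTR and 100 matched list genes. A class needed at least 3 of its fixed markers raised 2-fold and seen in 10% of cells. Clusters with over 50% of another lineage's markers, or led by 3 cycling genes, stayed unnamed, and immune classes, and stellate and pericyte markers, counted as 1 lineage each, as set after seeing the data.

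Counts were summed per class and library, scaled to CPM and compared as log2(CPM + 1), which understates changes of low genes. No p-value was computed, since libraries could not be assigned to ages, and the planned edgeR test of the ages was not run. The call rule was tested on simulated data. The genes and lists were chosen with earlier results of these data known. List genes could be named with their values, as could the 3 genes most like each of ALB, AFP and TTR with at least 20 counts in at least 3 units. AHSG, AMBP, F7, APOA1, APOE and IGF2, which are list genes, were singled out in the ALB groups after their values were seen. Alternatives were a pseudocount of 10, centring, a minimum of 5 counts, cells from 1000 UMIs, resolution 2, removal of 5% as doublets, clustering each library alone, and leaving out each library. No sequence is printed. The level of 1 marker gene, and the marker sum that rests on it, are not reported here.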

Additional observations from a re-analysis of the deposited data

How the results depend on the processing

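The direction and call of ALB, AFP and TTR in the class comparisons were the same under 107 of 111 alternatives, and ALB and AFP were newly called under the other 4. These were ALB in acinar-like against ductal-like cells centred on the median of all genes (6.59), without the cell with the most ALB UMIs (4.98, chosen after seeing the data) and without library 1, and AFP there without library 1. AFP missed the count minimum in each class comparison. Where it stayed uncalled, low counts left little room for another outcome, so that agreement does not measure stability. ALB and TTR were chosen by levels in these same cells, so their agreement over reprocessings of the same counts is no independent support. Leaving out 1 library gave ALB 2.64 to 4.99 and AFP 1.49 to 3.099, the upper value in each case without library 1. No paired analysis was possible because the libraries carry no replicate number of the labels.

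Counts of calls moved more. For acinar-like against ductal-like cells, 89 genes higher became 54 with a pseudocount of 10, 455 when centred, 53 from 1000 UMIs, 32 with libraries clustered alone and 95 to 264 without 1 library. The 2994 lower became 404 when centred, 6244 with 5 counts, 1098 from 1000 UMIs and 3155 to 5426 without 1 library. For endocrine-like against ductal-like cells, 751 higher became 332 with a pseudocount of 10, and 1020 lower became 1934 with 5 counts, 368 from 1000 UMIs, 660 with libraries clustered alone and 1143 to 1855 without 1 library. For endocrine-like against acinar-like cells, 4601 higher became 1828 with a pseudocount of 10 and 858 when centred, and 106 lower became 593 when centred, 197 with 5 counts and 107 to 184 without 1 library. The cause was not tested, except that a lower count minimum, or fewer libraries to satisfy, lets more genes be called.

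With cells from 1000 UMIs, ALB in acinar-like cells of library 3 was 475 CPM, and TTR in endocrine-like cells of libraries 1 to 4 was 1225, 5685, 3926 and 780 CPM. Thinning to 3000 UMIs lowers any share of cells with a UMI by construction: for acinar-like cells of libraries 1 to 4 it gave 30.1%, 41.7%, 56.8% and 15.7% for ALB and 0%, 0.87%, 9.63% and 0% for AFP, and for endocrine-like cells 86.2%, 98.7%, 97.7% and 74.4% for TTR. AFP in acinar-like cells of libraries 1 and 4 rests on 3 UMIs and 1 UMI, with upper bounds of 2.17 and 5.13 CPM, and having only 11 ductal-like cells kept library 4 out of the comparisons with that class.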
